A study of Beta vulgaris subsp. vulgaris with 30 samples.

Results

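Sugar beet shoots sampled after 3 days of ethanol pretreatment were compared with shoots sampled just before it, to ask how the seedlings' RNA changed over those days. The comparison takes 12 of the 30 libraries of the study, chosen by their titles, with 6 labelled as before pretreatment and 6 as 3 days of ethanol. The table lists 21587 genes, and 14128 of them had enough reads to be tested. The plants were Beta vulgaris subsp. vulgaris with no genotype given. Per the series description, they were grown in pots of soil at 22 °C with 16 h of light, and at 7 days of age the pot bottoms were set in 80 mM ethanol. The ethanol plants were therefore 3 days older than the plants of the start, and age and ethanol changed together. Another group, labelled as 3 days of water, was of the same age without ethanol and is set beside the results. Protocols attached to the single samples instead describe Arabidopsis plants of 14 days in 20 mM ethanol for 6 days, and the series description was followed here because the organism and the 3 days in the titles match it.

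Ethanol taken up by a plant is oxidised by alcohol dehydrogenase to acetaldehyde and by aldehyde dehydrogenase to acetate, which can enter central metabolism as acetyl-CoA. At the age studied, a beet seedling passes from living on its cotyledons to forming its first true leaves. Beet moves carbon as sucrose, which sucrose phosphate synthase makes, sucrose transporters load into the phloem and sucrose synthase splits.

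RNA was sequenced by Lasy-Seq, a low-cost method for many bulk RNA samples, from 200 ng of total RNA per library. The 6 libraries taken before held 6658906 to 14171223 counted reads. The 6 ethanol libraries held 3379082 to 15804988, and the lowest was ethanol replicate 4, which had reads in 11985 genes where the other 11 libraries had them in 13266 to 14809. In a principal component analysis of the 12 libraries, component 1 held 18.8% of the variance and placed ethanol replicate 4 alone, at 164.8, with the other ethanol libraries at -2.46 to 2.92 and the libraries taken before at -32.63 to -20.83. Component 2, with 12.2%, placed the libraries taken before at 7.18 to 77.09 and the other ethanol libraries at -60.09 to -35.66. Ethanol replicate 4 lay at 33.27 on it, on the side of the libraries taken before. Results are therefore given with and without that library. The labels name no separate cultures for the replicates, so p-values measure only the spread between these samples, and in bulk shoots fewer cells of a type and less RNA per cell cannot be told apart.

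After 3 days of ethanol 243 genes were higher and 289 lower than before, at an adjusted p below 0.05 by edgeR's quasi-likelihood test over all 14128 genes. These are 1.72% and 2.05% of the genes tested, and 3.77% (532) in all. Without ethanol replicate 4, 208 genes were higher and 195 lower among 14462 tested, or 1.44% and 1.35%, and 2.79% in all. Of these, 189 and 186 were also called with all 12 libraries. The higher genes had a median log2 change of 1.21 and the lower genes one of -0.91, against -0.0094 over all genes tested. Changes of at least 2-fold made up 65.0% of the higher and 41.9% of the lower genes, and changes of at least 4-fold were seen in 37 and 41. Among the higher genes the median of the gene means was 16.7 CPM before and 37.1 CPM after ethanol (counts scaled to one library total, TMM-adjusted). Among the lower genes it was 60.0 CPM before and 29.7 CPM after. The 6 ethanol libraries did not overlap the 6 taken before in 135 of the higher and 159 of the lower genes. Over all genes tested the groups were apart in 400, or 2.83%.

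The share of called genes differed by level. Among genes with a mean of 1 to 10 CPM over the 12 libraries, 0.791% were higher and 0.5% lower. Between 100 and 1000 CPM the shares were 6.83% and 8.62%. Of the 171 genes at 1000 CPM or more, 4 were higher and 15 lower, or 2.34% and 8.77%. The standard error of a log2 change had a median of 0.44 over all genes and of 0.22 over genes averaging 10 CPM or more. By chromosome, the called share ran from 2.1% on chromosome 8 to 5.43% on chromosome 2, where 44 genes were higher and 48 lower.

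**Figure D1:**
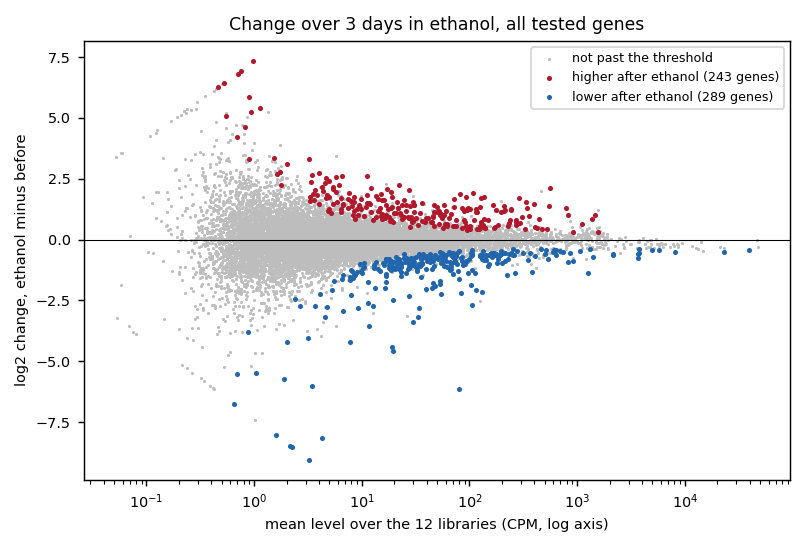
Each point is a tested gene, with its mean CPM over the 12 libraries on a log axis and its log2 change from before to 3 days of ethanol on the other axis. The 243 higher genes are red and the 289 lower genes blue; fitted changes of genes with no reads in one group depend on the prior count and are no measure of size.

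The genes with the largest increases were low or nearly silent at the start. They were the 10 largest among genes that passed the test, reached a mean of 5 CPM after ethanol, matched a RefSeq gene and had groups that did not overlap. All 10 passed the test without ethanol replicate 4 as well. With limma, 4 of them did not pass, namely Bevul.2G018600 (adjusted p = 0.0832), Bevul.2G030300 (0.298), Bevul.7G157900 (0.139) and Bevul.5G024600 (0.0962). Bevul.3G026700 did not pass in an edgeR fit of the compared groups only (0.053). No gene product is named for them in the files used here, so no role is given.

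Bevul.7G179600 (LOC104899852, chromosome 7, 54873465 to 54878769, minus strand, assembly EL10.2) had a lowest, median and highest value of 0, 0.181 and 1.95 CPM before and of 2.89, 5.04 and 11.7 CPM after ethanol. Every ethanol library lay above every library taken before. Its log2 change was 3.33 ± 0.89 (SE, n = 6 and 6, adjusted p = 0.0239 by edgeR). The call was lost in fits without any of 4 of the libraries taken before (replicates 2, 3, 4 and 6, adjusted p of 0.0512, 0.0544, 0.0542 and 0.0559 by edgeR) or without ethanol replicate 6 (0.0631), and without before replicate 1 the log2 change was 4.39.

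Bevul.2G018600 (LOC104887719, chromosome 2, 2434785 to 2436388, minus strand) went from 0.706, 3.02 and 7.03 CPM (lowest, median, highest) to 9.73, 17.1 and 36.1 CPM. The lowest ethanol library stood above the highest library taken before. The log2 change was 2.62 ± 0.42 (adjusted p = 0.000135 by edgeR). Bevul.2G030300 (LOC104887200, chromosome 2, 4506606 to 4507860, minus strand) held 0.848 to 2.02 CPM before, with a median of 1.78, and 3.61 to 20.2 CPM after ethanol, with a median of 7.05. It varied more among the ethanol libraries than at the start, and its log2 change was 2.57 ± 0.51 (adjusted p = 0.00181 by edgeR).

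Bevul.7G196200 (LOC104900015, chromosome 7, 57179352 to 57180928, minus strand) had the lowest adjusted p of these 10. Before, it held 3.43, 6.25 and 17.5 CPM (lowest, median, highest), and after ethanol 24.2, 35.1 and 60.4 CPM. The highest value was that of ethanol replicate 4. The log2 change was 2.23 ± 0.33 (adjusted p = 3.26e-05 by edgeR), and without that library it was 2.05 (0.000158 by edgeR).

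Bevul.9G224400 (LOC104904861, chromosome 9, 54248515 to 54250830, plus strand) rose from 10.8 ± 5.65 CPM (SD, n = 6) to 44.4 ± 6.98 CPM (n = 6), a log2 change of 2.05 ± 0.39 (adjusted p = 0.0012 by edgeR). The ethanol libraries held 36.8 to 55.1 CPM, and none of those taken before passed 20.0 CPM. Bevul.9G179600 (LOC104904435) rose by 2.15 ± 0.45 on the log2 scale, with 22.6 CPM in ethanol replicate 4 against 5.05 to 7.91 CPM in the other 5 ethanol libraries. Without that library its log2 change was 1.66 (adjusted p = 0.0262 by edgeR). The remaining members of the 10, Bevul.5G008000, Bevul.3G026700, Bevul.7G157900 and Bevul.5G024600, had log2 changes of 2.60 ± 0.63, 2.53 ± 0.63, 2.26 ± 0.58 and 2.10 ± 0.48.

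The largest decreases went further than the largest increases, and several took genes with clear levels before to almost none. The 10 were chosen by the same rule, with the 5 CPM required before ethanol, and 9 of them passed the test without ethanol replicate 4. Bevul.5G006800 (LOC104892050, chromosome 5, 906537 to 908638, minus strand) held 73.9, 152 and 278 CPM (lowest, median, highest) before and 0.0691, 2.40 and 3.96 CPM after ethanol. Its log2 change was -6.12 ± 0.64 (adjusted p = 1.25e-07 by edgeR), the lowest adjusted p among the lower genes. Every library after ethanol was more than an order of magnitude below the lowest one before.

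Bevul.9G042700 (LOC104902897, chromosome 9, 8942484 to 8952958, minus strand) fell from 12.1, 29.8 and 82.5 CPM to 0.553, 1.53 and 2.55 CPM (lowest, median, highest). Its log2 change was -4.57 ± 0.72 (adjusted p = 9.17e-05 by edgeR). Bevul.9G093600 (LOC104903505, chromosome 9, 31664222 to 31678080, minus strand) held 31.9, 53.4 and 101.2 CPM before and 0.428, 6.28 and 11.4 CPM after ethanol, with a log2 change of -3.18 ± 0.60 (adjusted p = 0.00114 by edgeR). Bevul.3G085500 (LOC104888645) fell from a mean of 14.9 ± 7.74 CPM to one of 0.739 ± 0.743 (SD, n = 6 and 6), which is -4.23 ± 0.77 on the log2 scale.

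Some of these genes ended at or near no reads. Bevul.3G115600 (LOC104889037, chromosome 3, 17432020 to 17433287, plus strand) held 2.53 to 13.6 CPM before and no read in any ethanol library. Set against a floor of 3 reads over the 6 ethanol libraries, 0.0518 CPM, it was at least 124.3-fold lower. Bevul.6G221400 (LOC104897764, chromosome 6, 68320228 to 68321581, plus strand) had 465 reads before and 1 after, the latter in ethanol replicate 1. The ratio of reads scaled by the groups' totals was 517, with an exact 95% interval of 92.4 to 20467.5 that covers counting error only. Bevul.6G233600 (LOC104897889) fell from 6.79 ± 2.90 to 0.0916 ± 0.172 CPM, with a log2 change of -6.02 ± 1.40, and -7.63 in a fit without ethanol replicate 1.

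Bevul.7G010400 (LOC104898204, chromosome 7, 1423924 to 1426875, plus strand) went from 36.2 ± 22.4 CPM down to 1.63 ± 2.51, with a log2 change of -4.41 ± 0.91 (adjusted p = 0.0028 by edgeR), and -5.66 without ethanol replicate 2. Bevul.2G106600 had a log2 change of -2.76 ± 0.68 (adjusted p = 0.0144 by edgeR), which without before replicate 3 was -2.39 (0.053). The least firm of the 10 was Bevul.8G032500 (11.7 ± 8.01 to 1.54 ± 0.555 CPM, log2 change -2.95 ± 0.85, adjusted p = 0.0415 by edgeR), which passed in 8 of the 19 other settings. Without any one ethanol library its adjusted p was 0.0614 to 0.0922, and without before replicate 4, 5 or 6 it was 0.0545, 0.0713 and 0.138.

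**Figure D2:**
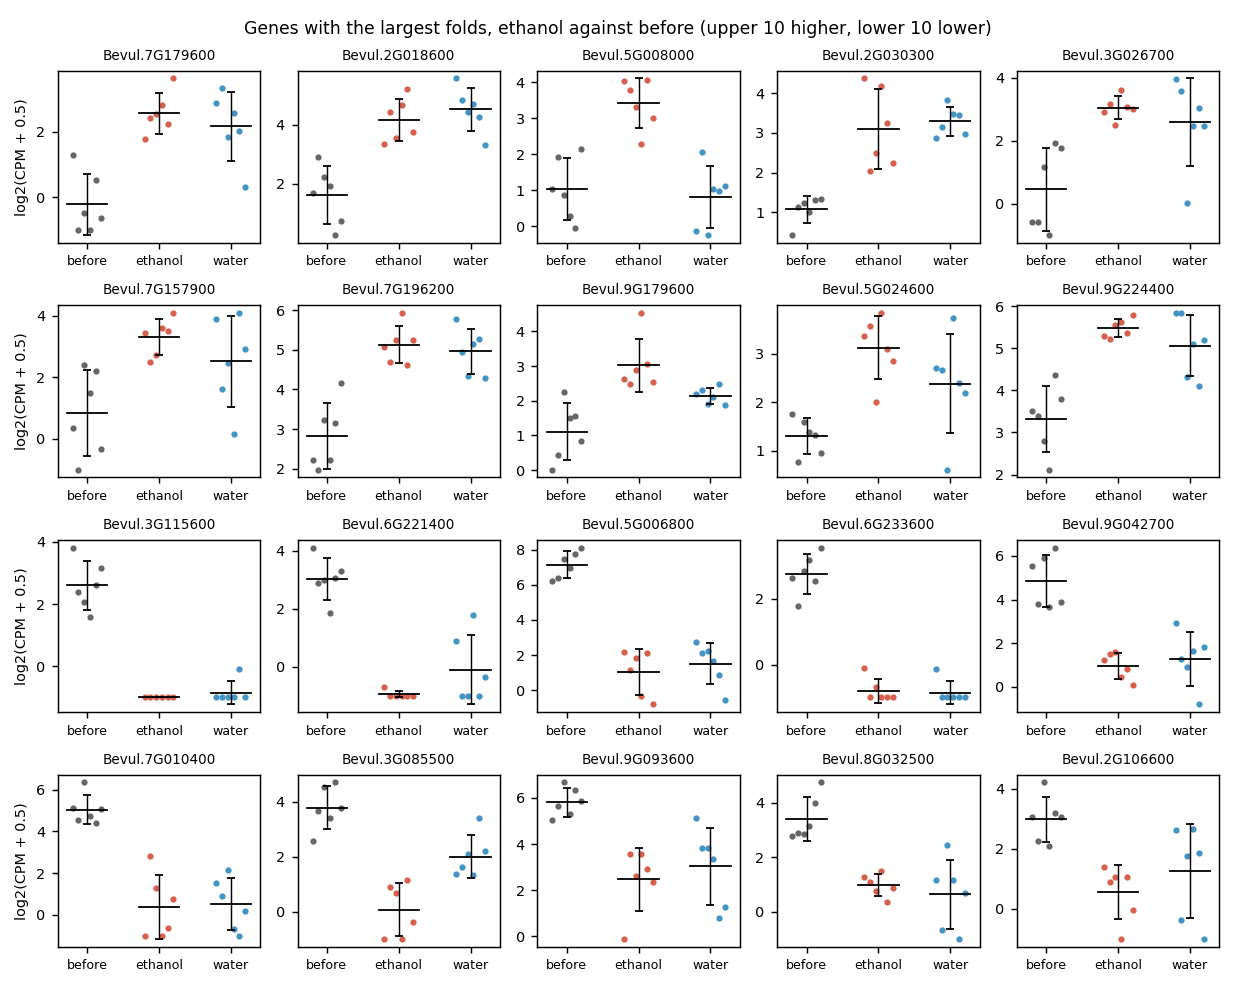
Values of the 10 genes with the largest increases (upper rows) and the 10 with the largest decreases (lower rows) in each library, as log2(CPM + 0.5), for the groups before, ethanol and water; bars are the mean ± SD of 6 libraries. In each gene the ethanol and before libraries do not overlap, which the choice of these genes required, and the water libraries lie beside those of ethanol in most of them.

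The genes with the lowest adjusted p, Bevul.5G006800 apart, changed by smaller folds. Bevul.4G241200 (LOC104889944, chromosome 4, 64805600 to 64806209, plus strand) held 146, 180 and 189 CPM before and 374, 485 and 664 CPM after ethanol (lowest, median, highest). The log2 change was 1.53 ± 0.16 (adjusted p = 1.25e-07 by edgeR). Bevul.4G146800 (LOC104891022, chromosome 4, 50242259 to 50242854, plus strand) rose from 59.8 ± 13.9 to 194.8 ± 54.9 CPM, with a log2 change of 1.70 ± 0.20. Bevul.4G070200 (LOC104891457) rose from 299.8 ± 49.9 to 786 ± 150 CPM, with a log2 change of 1.39 ± 0.16.

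On the lower side, Bevul.2G080700 (LOC104887209, chromosome 2, 18818404 to 18824182, plus strand) held 102.1, 184 and 282 CPM before and 17.5, 29.7 and 35.5 CPM after ethanol. The log2 change was -2.70 ± 0.31 (adjusted p = 7.36e-07 by edgeR). Bevul.7G012200 (LOC104898222, chromosome 7, 1765922 to 1767986, plus strand) held 252, 323 and 400 CPM before and 70.2, 112.5 and 160 CPM after ethanol, with a log2 change of -1.44 ± 0.17. The groups were apart in each of these 5 genes, and all 5 passed in all 19 other settings.

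The most abundant RNAs took a smaller share of the libraries after ethanol. With each library thinned to 3379082 reads, its 5 most abundant genes held 17.8% ± 1.08 of the reads before (16.3 to 18.9%) and 16.0% ± 0.433 after (15.3 to 16.5%, SD, n = 6 each). The difference of -1.787 percentage points had a two-sided exact permutation p of 0.00649, or 0.013 adjusted over 2 measures, and the smallest p this design allows is 0.00216. Without ethanol replicate 4 it was -1.754 percentage points (exact permutation p = 0.013, adjusted 0.026), and on unthinned counts -1.775. The number of genes detected at that depth was 13401.7 ± 243.1 before and 13413.3 ± 748.1 after ethanol (exact permutation p = 0.983). Without ethanol replicate 4, at 6658906 reads, it was 13796.3 ± 288.2 and 14091.2 ± 312.5 (exact permutation p = 0.147). Neither measure was taken in the water libraries, so the values given here do not separate age from ethanol.

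Of the abundant genes past the threshold, Bevul.7G217400 (LOC104900217, chromosome 7, 59462404 to 59463207, minus strand) had the highest mean. It made up 4.08% ± 0.332 of the counts before, 3.28% ± 0.24 after ethanol and 3.55% ± 0.209 after water (SD, n = 6 each). In CPM its libraries ran from 36490.5 to 50469.2 before and from 27148.1 to 37906.6 after, so the groups overlapped. Its log2 change was -0.44 ± 0.09 (adjusted p = 0.0044 by edgeR), and it passed in all 19 other settings.

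Bevul.2G213500 (LOC104906047) and Bevul.2G237500 (LOC104903711) had log2 changes of -0.50 ± 0.15 and -0.53 ± 0.15, with adjusted p of 0.0494 and 0.0403 by edgeR. These calls were close to the threshold, and without ethanol replicate 4 the adjusted p were 0.119 and 0.114. They passed in 7 and 10 of the 19 other settings. Their log2 changes from before to water were -0.53 ± 0.15 and -0.19 ± 0.15. Among the higher genes Bevul.9G170700 (LOC104904353, chromosome 9, 48389241 to 48390645, minus strand) rose from 960 ± 178 to 1953.4 ± 200.1 CPM. Its log2 change was 1.03 ± 0.15 (adjusted p = 3.51e-05 by edgeR). Bevul.2G011500 and Bevul.9G043600, with log2 changes of 0.83 ± 0.24 and 0.31 ± 0.09, passed at 0.0467 and 0.0454 and had adjusted p of 0.0701 and 0.0575 without ethanol replicate 4. They passed in 7 and 5 of the 19 other settings.

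Of the 15 genes with a RefSeq symbol, 1 passed the test. CENP-C (Bevul.9G202000, chromosome 9, 51786619 to 51793514, minus strand), the centromere protein C that is part of the inner kinetochore, held 0.202, 1.75 and 4.77 CPM before and 2.68, 9.11 and 17.6 CPM after ethanol (lowest, median, highest). The groups overlapped, and ethanol replicate 4 had the highest value. The log2 change was 1.95 ± 0.51 (adjusted p = 0.0208 by edgeR). Without ethanol replicate 4 it was 1.70 with an adjusted p of 0.0654, and without before replicate 1 or 3 the adjusted p was 0.0526 in both fits, by edgeR. The call was also lost by limma (adjusted p = 0.0619) and in an edgeR fit of the compared groups only (0.0607). It passed in 13 of the 19 other settings. In water CENP-C stood at 4.82 ± 3.31 CPM (n = 6), and its ethanol minus water log2 difference of 0.90 ± 0.49 did not pass (adjusted p = 1 by edgeR).

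The other 14 did not pass, among them the genes of sucrose handling. The sucrose transporter gene sut1 stood at 26.0 ± 5.56 CPM before and 23.6 ± 10.7 CPM after ethanol (log2 change -0.14 ± 0.25). The sucrose synthase gene SBSS1 stood at 28.0 ± 9.15 and 28.1 ± 6.27 CPM (0.01 ± 0.25), and the sucrose phosphate synthase gene SBSPS1 at 1.41 ± 1.02 and 0.714 ± 0.982 CPM (-0.92 ± 1.06). Each difference was within 1 standard error of 0. Among the other symbol genes that did not pass, BV-70/5 had the lowest adjusted p, 0.162 by edgeR. It stood at 314.6 ± 14.7 CPM before and 371.3 ± 26.2 CPM after ethanol (0.24 ± 0.09), and passed in 1 of the 19 other settings.

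BTC1, the pseudo-response regulator gene of bolting time control in beet, stood at 42.4 ± 7.59 CPM before and 37.9 ± 5.88 CPM after ethanol (log2 change -0.16 ± 0.17). PRR7, of the same family of clock genes, stood at 21.1 ± 10.1 and 24.3 ± 9.34 CPM (0.22 ± 0.29). Both lay within the spread of their groups. No source used here gives the hour of sampling. The gene nr1, for nitrate reductase, had 141 ± 33.3 CPM before and 177 ± 21.0 CPM after ethanol (0.33 ± 0.16), and agpS1, for the small subunit of the enzyme that makes ADP-glucose for starch, at 9.07 ± 3.61 and 12.0 ± 2.20 CPM (0.40 ± 0.26). Their adjusted p were 0.321 and 0.518 by edgeR.

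Called genes that stood next to each other were looked for in the order of the genes tested along the chromosomes, after the values had been seen. There were 19 runs of neighbours called in one direction, 11 higher and 8 lower, with 44 genes, or 8.27% of the 532 called. Most, 15, were pairs. Of all genes tested 1.72% were called higher and 2.05% lower, so some called genes stand side by side in any case. A gene has a neighbour on each side, so these shares cannot be set directly against the 8.27%. Whether there were more runs than these shares give was not tested. The longest was on chromosome 7, from 58734412 to 58784663, where Bevul.7G211000, Bevul.7G211200, Bevul.7G211300, Bevul.7G211400 and Bevul.7G211500 all rose, by 1.01 ± 0.12, 1.18 ± 0.16, 0.61 ± 0.12, 1.29 ± 0.16 and 0.84 ± 0.15 on the log2 scale. Bevul.7G211000 held 404, 549 and 666 CPM before and 834, 1055.6 and 1402.8 CPM after ethanol (lowest, median, highest). The groups were apart in each of the 5.

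On chromosome 5, from 1764976 to 1778550, Bevul.5G013300, Bevul.5G013400 and Bevul.5G013500 rose by almost the same amount, 1.21 ± 0.16, 1.21 ± 0.14 and 1.20 ± 0.16. Their means went from 56.9 to 132, from 130 to 301 and from 147 to 336 CPM. On chromosome 4, from 13562761 to 13663040, Bevul.4G070000, Bevul.4G070200 and Bevul.4G070600 rose by 1.16 ± 0.27, 1.39 ± 0.16 and 1.44 ± 0.28. Neighbours of like sequence could share reads, and no source used here says how reads with several hits were counted.

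The one lower run of 3 was on chromosome 1, from 41493441 to 41549352. Bevul.1G083800 held 184.5 ± 33.9 CPM before and 43.4 ± 37.9 CPM after ethanol, with medians of 173 and 27.1, and its groups did not overlap. Its log2 change was -2.08 ± 0.41, and those of Bevul.1G083900 and Bevul.1G084000 were -2.83 ± 0.60 and -2.05 ± 0.47. The ethanol libraries differed widely from one another in these genes, and without ethanol replicate 1 the values of the latter pair were -3.57 and -2.72. All 14 genes of the 4 runs passed without ethanol replicate 4.

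**Figure D3:**
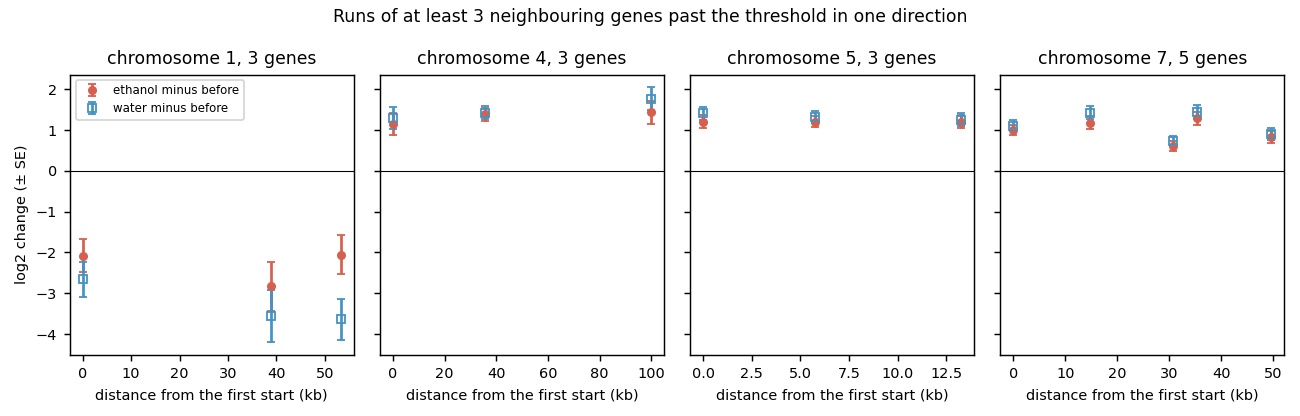
Log2 change ± SE of each gene in the 4 runs of at least 3 neighbours, against its distance in kb from the first gene's start, for ethanol minus before (filled circles) and water minus before (open squares). The values after ethanol and water lie close to each other in the 3 higher runs, and those on chromosome 1 are lower than before in both.

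Among the genes past the threshold, 5 had no read in the 6 libraries taken before and 5 none in the 6 ethanol libraries. Against floors of 3 reads per group (0.0576 CPM before, 0.0518 CPM after), Bevul.2G222600, Bevul.1G162100, Bevul.1G080600, Bevul.9G229300 and Bevul.3G193900 were at least 34.3, 26.0, 24.4, 18.2 and 16.1-fold higher after ethanol. Each had reads in 3 to 5 of the 6 ethanol libraries, at group means of 0.926 to 1.97 CPM. Bevul.2G222600 overlaps a neighbouring gene and its count is uncertain. In the other direction Bevul.3G115600, Bevul.7G010500, Bevul.2G163300, Bevul.7G117300 and Bevul.4G107700 were at least 124.3, 87.7, 83.9, 61.3 and 25.4-fold lower. Bevul.7G010500 lies next to Bevul.7G010400, described above. The first 4 of these 5 had reads in all 6 libraries before, and Bevul.4G107700 in 3. The 5 higher calls passed in 7 to 17 of the 17 or 18 other settings that gave them an adjusted p. Limma lost all 5 of them (adjusted p = 0.0822 to 0.519). With the ethanol and before libraries fitted alone, none of the 5 was among the 11805 genes tested. Bevul.7G117300 and Bevul.4G107700 were not tested there either. Of the lower ones, Bevul.7G117300 passed in all 17 that gave one, Bevul.4G107700 in 7 of 17 and the others in all 19. The call of Bevul.4G107700 was lost without any one of the 6 ethanol libraries (adjusted p = 0.0528 to 0.064 by edgeR), with 0.0528 without ethanol replicate 4. It was also lost without before replicate 5 or 6 (0.0615 and 0.0556 by edgeR), with the replicate block (0.089 by edgeR) and by limma (0.287).

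The water plants, of the same age, allow ethanol and age to be told apart. The 243 genes higher after ethanol had a median log2 change of 1.14 in water against before, beside 1.21 in ethanol, and the 289 lower genes one of -0.69 beside -0.91. Both changes are measured from the same 6 libraries taken before, so their likeness is partly built in, and the test of their difference is ethanol against water. In that test no gene was higher and 1 was lower among 14128 (0.00708%) by edgeR. By DESeq2 4 were higher and 5 lower, and without ethanol replicate 4, 0 and 2 by edgeR. At an unadjusted p below 0.05 by edgeR there were 558 genes, beside 2177 in ethanol against before. The 558 are fewer than 1 in 20 of the genes tested, the share that such a cut passes where no gene differs. Over the 243 and 289 genes the median ethanol minus water difference was 0.092 and -0.17 on the log2 scale, against 0.00256 over all genes tested. These genes were chosen by their ethanol values, which by itself moves such medians up for the higher and down for the lower genes. The medians are therefore no measure of an effect of ethanol. Water against before had 231 genes higher and 206 lower, or 3.09% in all. A p that misses the threshold does not show that the groups were alike.

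None of the 10 genes with the largest increases, or of the 10 with the largest decreases, passed in ethanol against water. Bevul.7G196200 stood at 36.3 ± 13.1 CPM after ethanol and 32.8 ± 13.2 CPM after water (log2 difference 0.13 ± 0.31), and Bevul.5G006800 at 2.17 ± 1.74 and 3.08 ± 2.20 CPM (-0.40 ± 0.60). Bevul.5G008000 (LOC104892062, chromosome 5, 1091269 to 1096815, minus strand) had the largest difference among the 10 increases. It held 0.471, 1.42 and 3.90 CPM before, 4.40, 11.3 and 16.3 CPM after ethanol, and 0.342, 1.504 and 3.66 CPM after water (lowest, median, highest). No water library reached the lowest ethanol library. The log2 change was 2.60 ± 0.63 with ethanol (adjusted p = 0.0118 by edgeR) and -0.27 ± 0.62 with water (0.925), and the difference was 2.87 ± 0.63 (0.142). That difference passed in 3 of the 19 other settings tried for it, with adjusted p from 0.00398 by DESeq2 to 0.482 by edgeR.

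The 1 gene that passed in ethanol against water rose less with ethanol than with water. Bevul.5G150600 (LOC104908091, chromosome 5, 44469089 to 44469890, minus strand) held 8.52, 11.0 and 14.8 CPM before, 17.3, 21.7 and 29.3 CPM after ethanol, and 42.3, 68.1 and 76.3 CPM after water (lowest, median, highest). The 3 groups did not overlap. From before, the log2 change was 1.02 ± 0.28 with ethanol (adjusted p = 0.0291 by edgeR) and 2.54 ± 0.29 with water (2.21e-07), and the difference was -1.52 ± 0.27 (0.0383). The change with ethanol had an adjusted p of 0.0665 without ethanol replicate 4 and passed in 10 of 19 other settings, and the difference passed in 9 of 19. The difference was lost without any one of ethanol replicates 1, 2, 3, 5 and 6 or water replicates 1, 2, 3, 5 and 6, with adjusted p of 0.0556 to 0.223 by edgeR.

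Other named genes had wide ethanol minus water differences that did not pass. Bevul.6G221400, with 1 read after ethanol, stood at 0.0178 ± 0.0437 CPM then and at 0.765 ± 1.20 CPM after water (adjusted p = 0.655 by edgeR). Bevul.4G107700 had no read after ethanol and 1.06 ± 0.940 CPM after water, with reads in 5 of 6 water libraries (0.655), and Bevul.7G010500 none after ethanol and 0.659 ± 1.09 CPM after water, in 3 of 6 (0.797). Bevul.3G085500 stood at 0.739 ± 0.743 CPM after ethanol and 4.10 ± 3.07 CPM after water (-2.37 ± 0.73, adjusted p = 0.805 by edgeR). Bevul.1G084000, in the lower run, stood at 15.5 ± 15.2 and 5.14 ± 2.07 CPM (1.59 ± 0.48, adjusted p = 0.783 by edgeR).

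**Figure D4:**
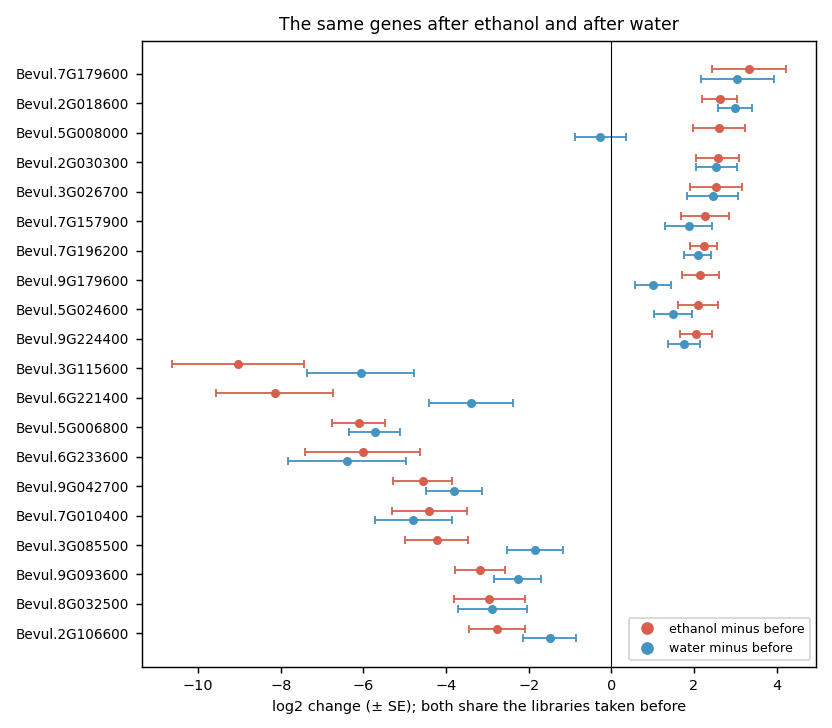
Log2 change ± SE of the 20 genes with the largest folds, for ethanol minus before (red) and water minus before (blue). Bevul.5G008000 is the gene with a change of 2.60 with ethanol and -0.27 with water; the value of Bevul.3G115600, which had no read after ethanol, depends on the prior count and is no measure of size.

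Ethanol replicate 4 was compared with the calls made without it. Of the 208 genes called higher without it, its value lay above the mean of the libraries taken before in 195 and above all 6 of them in 168. Of the 195 called lower, it lay below that mean in 188 and below all 6 in 161. Its median log2 difference from the mean before was 1.11 and -1.14 over these genes, beside 1.16 and -0.97 for the mean of the other 5 ethanol libraries, on log2(CPM + 0.5). The genes were called against these same 6 libraries taken before, so any further library tends to fall past them. Such counts were not made over all genes tested, and those given are no independent check of ethanol replicate 4.

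Over all genes of moderate or higher level it scattered more than the other ethanol libraries. Of 5303 genes averaging 10 CPM or more, it was at least 2-fold above the median of the other ethanol libraries in 171 and at least 2-fold below it in 443. For the other 5 ethanol libraries the counts were 60 to 91 and 95 to 162. All 157 genes whose call was lost without it kept their direction, with a median adjusted p of 0.0681 for the higher and 0.0807 for the lower ones by edgeR. Both fits share all their other libraries, so the kept direction was largely fixed in advance. The part of the lower depth of ethanol replicate 4 in these results was not tested.

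**Figure D5:**
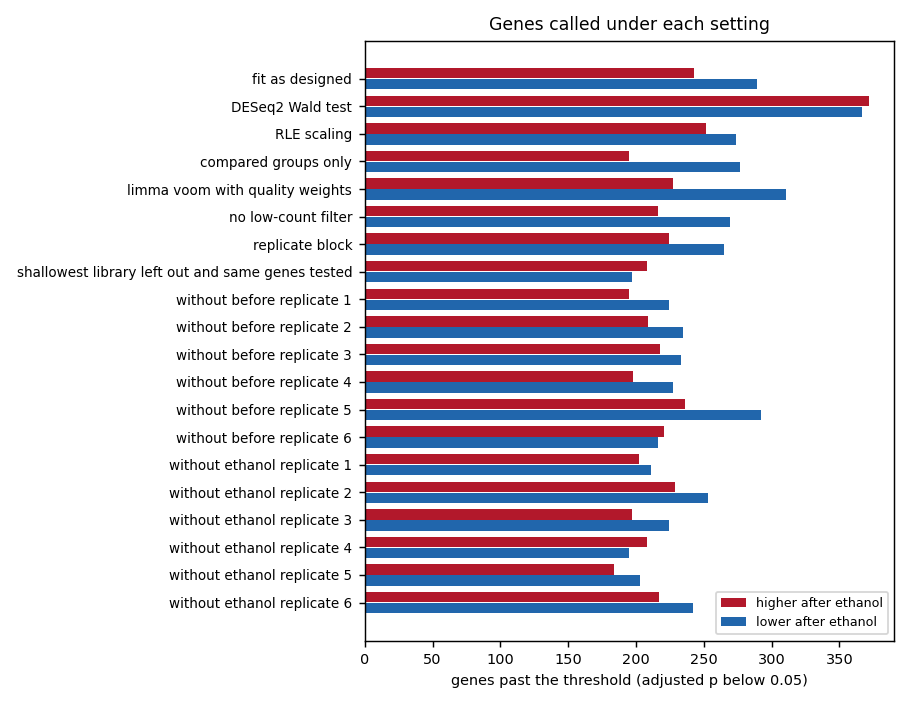
Number of genes called higher (red) and lower (blue) in ethanol against before in the fit as designed and in 19 other settings, at an adjusted p below 0.05. The fit without ethanol replicate 4 has 208 and 195, and DESeq2 has the most, 372 and 367 (5.55% of the genes it gave an adjusted p).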

How the data were processed

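Shoot RNA of 12 libraries was compared, with the other 18 in the same fit. Per the submitters' processing notes, the authors used bcl2fastq, Trimmomatic, HISAT2, featureCounts and DESeq2, with no versions or settings. TAIR10, an Arabidopsis build, is the build in those notes, while per the file headers the coordinates are of beet assembly EL10.2. The deposited counts are whole reads per gene. A second deposited table holds a signal, each count over its library's size factor (relative spread at most 1.6e-10), and was not tested. No source says whether counting used strand, and 582 genes overlap a neighbour.

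Of 21587 genes, 2180 had no reads. Genes passing filterByExpr by group (14128, with 99.92% of reads) were fitted in R 4.3.3 with edgeR 4.0.16, TMM scaling and 5 group means over 30 libraries, as a quasi-likelihood model. Contrasts were tested on 2 sides with Benjamini-Hochberg adjustment over all genes. CPM values are TMM-scaled, standard errors are the log2 change divided by the square root of F, and the common dispersion had a square root of 0.593. The tests were tested on simulated data. Other settings used DESeq2 1.42.0, limma 3.58.1 with voom quality weights, relative log expression scaling, no filter, a replicate block, the compared groups only, and each library left out. These were planned for ethanol against before. Their use for the water contrasts (ethanol against water without ethanol replicate 4 apart), and the fit without that library on the same genes, were added once the data had been seen. Exact permutation tests used Python 3.11.15 with scipy 1.17.1.

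RefSeq genes of EL10.2 were matched by position (each covering at least 0.5 of the other) for 16275 genes (75.39%). Only 15 had a symbol, and no product description was at hand, so the planned lists of pathways and of shoot, root and seed markers held 0 genes and promoter letters were not searched. The tissue label was therefore not checked against markers. Named genes were those with a symbol, the 10 largest folds, the 3 lowest adjusted p and the 3 highest means in each direction. Genes of runs, genes without reads in a group and Bevul.5G150600 were named after their values were seen. The comparison, lists and rules were chosen with earlier results of these data known. Same-numbered libraries did not deviate together, so no pairing was used.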

Additional observations from a re-analysis of the deposited data

Results flagged for a closer look

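Several values stood far from the others of their group by Dixon's test at the 95% level, where 68 groups were tested and 10 values stood out. The test flags about 1 in 20 groups by chance where values have a normal spread. Here it was run on CPM without a log scale, and some genes were near no reads. That rate need not hold for them, so the number flagged shows neither an excess nor the absence of one. Of these, 3 were in ethanol replicate 4, the shallowest library. In it Bevul.7G196200 was at 60.4 CPM (24.2 to 37.2 in the other 5), Bevul.9G179600 at 22.58 CPM (5.05 to 7.91), and the genes detected at one depth numbered 11985 (13313 to 14003). Ethanol replicate 6 was highest for Bevul.2G011500, at 2863.4 CPM, and for Bevul.2G213500, at 21728.4 CPM. Ethanol replicate 1 held the one read of Bevul.6G221400, 0.1069 CPM where the others had 0, and was highest for Bevul.6G233600, at 0.4277 CPM. Bevul.7G010400 was at 6.497 CPM in ethanol replicate 2 and at 80.62 CPM in before replicate 3. Before replicate 3 was also highest for Bevul.2G106600, at 17.92 CPM.

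The change of Bevul.5G150600 over 3 days differed between ethanol and water, with a log2 difference of -1.52 (adjusted p = 0.0383 by edgeR over all genes tested). All 6 ethanol libraries lay below all 6 water libraries. The difference passed in 9 of 19 other settings, with adjusted p from 0.00074 to 0.223.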

How the results depend on the processing

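Under the other settings the calls in ethanol against before stayed within 1.5 times of 243 higher and 289 lower, except for DESeq2, which called 372 higher (and 367 lower, 5.55% of 13304 genes with an adjusted p). Leaving out 1 library at a time gave 184 to 236 higher and 195 to 292 lower. The replicate number as a block gave 224 and 265; same-numbered libraries correlated at -0.0282 to 0.0318 in their deviations from the group means, and only ethanol replicates 3 and 5 correlated best with their own number. Of 55 named genes past the threshold, 34 passed in all 19 settings, 7 had an adjusted p in fewer settings, and none reversed. Limma lost 12 of these calls, the most of any setting.

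In water against before DESeq2 called 351 higher, and leaving out a library gave 174 to 213 higher and 144 to 207 lower. In ethanol against water the higher and lower calls were 0 and 1 in the fit as designed, 4 and 5 by DESeq2, 2 and 3 with only the compared libraries fitted, 1 and 6 by limma, and 2 lower without ethanol replicate 4 on the same genes. Leaving out a library gave 0 to 1 higher and 0 to 2 lower. The difference in genes detected was 294.9 and that in the share of the 5 most abundant genes -1.754 percentage points without ethanol replicate 4. The cause of these shifts was not tested. At 3379082 reads in every library, that library still had reads in fewer genes (11985) than the other ethanol libraries (13313 to 14003).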

Other observations

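In the deposited table, 2727 of the 21587 rows (12.6%) stand out of the order of their gene identifiers. Among the genes tested 19.2% (2706) were out of order, and among the 532 called in ethanol against before 82.7% (440) were. The 223 of these that were higher had a median row number of 5246 and the 217 that were lower one of 16021. Of the 44 genes in runs of called neighbours, 42 were out of order. All gene positions in the text come from the coordinates and not from row order.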
